A study of Mus musculus with 9 samples.

Results

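The genes described here are 36 members of the nuclear receptor superfamily, taken by name from a table of 22527 gene symbols: the retinoic acid receptors and Rxrb, the REV-ERB and ROR clock receptors, the receptors for oxysterols, bile acids, vitamin D and xenobiotics, the HNF4, testicular and COUP-TF orphan receptors, the steroid receptors, the NR4A receptors, and the NR5A, NR6A and NR0B genes. The PPAR, ERR and thyroid hormone receptors, Rxra and Rxrg are not among them. All 36 were in the table, each on 1 line. The study profiled ribosome-bound mRNA in wild type C57BL/6 mice aged 8 weeks, in 3 fat depots with 3 libraries each: brown fat (BAT), inguinal white fat (iWAT) and epididymal white fat (eWAT). No treatment is named. Tagged ribosomes were captured with an antibody against GFP, and the labels list the mice as wild type. The series title names adipocytes and the deposited table is named for adiponectin, an adipocyte gene, but no label states the promoter of the tag or whether a library is 1 animal.

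Nuclear receptors are transcription factors that bind short DNA elements as monomers, homodimers or heterodimers with a retinoid X receptor. Many are switched on by small lipophilic ligands such as retinoic acid, oxysterols or steroids. Others, the orphan receptors, have no established natural ligand and are set mainly by how much of the protein is made. In fat they are known for linking hormones, sterols, vitamin A and the clock to adipocyte differentiation and lipid metabolism, and the NR4A genes are known in brown fat as early responders to adrenergic signalling through cyclic AMP.

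Values are FPKM, fragment counts scaled to transcript length and to library size, so levels can be set beside each other between genes. The 9 libraries fell into 2 depth classes by an estimate from single-read steps among low values: BAT 1 to 3 and eWAT 1 lay at 11.1 to 21.2 M reads, and the other 5 at 2.92 to 4.66 M, so that depth and depot cannot be told apart between BAT and iWAT. For BAT 3 the labels disagree, with brown fat in the title and source and inguinal fat in the tissue field. Its Ucp1, the uncoupling protein that marks brown adipocytes, was at 3054 FPKM, beside 2626 and 2434 in BAT 1 and 2 and at most 3.38 in the white libraries. Library iWAT 1 correlated more closely with eWAT (0.945 to 0.963 over tested genes) than with iWAT 2 and 3 (0.899 and 0.934). Adipoq, the adipocyte hormone adiponectin, was at 456 FPKM or more in each library. Markers of other cells also differed: the summed level of 8 epithelial markers was 23.3 to 49.3 FPKM in BAT, 161 to 440 in iWAT and 64.0 to 218 in eWAT, with the lowest eWAT value in the deep library. All 5 of these that were tested were lower in BAT than in iWAT, beside 22.9% of all tested genes. Most of the sums came from the keratins Krt5, Krt14 and Krt15. The epithelial markers Epcam, Cdh1 and Krt18 reached only 0.124, 0.633 and 0.538 FPKM in any library. The summed level of 8 skeletal muscle markers was 60.6 to 150, 1816 to 2508 and 227 to 1300 FPKM. In BAT and eWAT 1 nearly all of it was Acta1, at 225 FPKM in eWAT 1. Every other muscle marker was at 1.13 FPKM or less there, and at 2.64 FPKM or more in each of the 5 shallow white libraries. Summed levels of 8 stromal progenitor markers were 7.55 to 18.99, 104 to 368 and 65.4 to 167 FPKM in BAT, iWAT and eWAT. Most of each white sum came from Dpt and Dcn. The progenitor markers Pdgfra, Pi16, Dpp4 and Cd34 reached only 0.806, 0.859, 0.263 and 1.24 FPKM in any library. Over all libraries endothelial markers summed to 3.04 to 10.48, macrophage markers to 4.19 to 14.2, mural and smooth muscle markers to 5.99 to 25.7 and nerve markers to 2.59 to 9.88 FPKM. T, B and NK cell markers reached 2.68 FPKM, mesothelial markers 2.31, and epididymis and testis markers 2.30, with Crisp1, Defb1 and Prm2 at 0 throughout. In such bulk samples, fewer cells of a type and less RNA per cell cannot be told apart.

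Of the 36 receptors, 12 were at 1 FPKM or more in every library, and 19 reached 1 FPKM in at least 3 libraries and were tested with limma on log2(FPKM + 1), with p-values adjusted over all 10374 genes tested. The other 17 were below 1 FPKM in each of the 9 libraries. Esr1 passed this filter only through BAT, where it was high, so its call follows in part from the filter. Between BAT and iWAT, 6 of 19 receptors were called higher in BAT, where 34.5% of all tested genes were, and 5 were called lower, where 22.9% were, so that 11 of 19 were called either way beside 57.5% of all genes. Without BAT 2, 3 were called higher, beside 26.8% of all genes. The libraries of 12 of the 19 did not overlap, beside 65.7% of all genes. Between BAT and eWAT, 4 were higher (20.2% of all genes) and 2 lower (13.5%), 6 of 19 either way beside 33.7%, and 9 did not overlap, beside 54.6%. Without eWAT 1, 5 were called lower, beside 21.6% of all genes. The shares of called receptors lay near those of all genes. Between iWAT and eWAT limma called none of the 19, beside 0.231% of all genes called higher and 1.5% lower (1.74% either way), and 6 of 19 had an unadjusted p under 0.05, as had 26.1% of all genes. The median difference of the tested receptors was 0.17 log2 units for BAT minus iWAT, 0.05 for BAT minus eWAT and 0.32 for iWAT minus eWAT. Over all tested genes it was 0.23, -0.02 and -0.18. Quantile normalization moved the first of these to 0.06 and the third to -0.05, and median-ratio scaling moved them to 0.13 and -0.03. The comparisons share libraries and are therefore not independent. In the deep white library eWAT 1, 4 of the 5 receptors called lower in BAT than in iWAT (Rara, Nr2c2, Nr2f2 and Nr4a3) stood within the BAT range and below all 5 shallow white libraries. The exception, Rarg, stood above BAT there. The trait is not particular to these calls. In eWAT 1, 10 of all 19 tested receptors stood below the shallow white libraries, among them Nr4a1, called higher in BAT, and 7 lay within the BAT range. Summed over the 36 receptors, the level was 411.8 to 471.7 FPKM in BAT, 208.8 to 298.1 in iWAT and 182.6 to 227.9 in eWAT. Most of this gap lay in Nr4a1 and Nr2f6. Their means were 139.8 and 87.4 FPKM in BAT, 15.7 and 11.6 in iWAT, and 6.23 and 19.2 in eWAT. The part of depth in these differences was not tested.

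**Figure D1:**
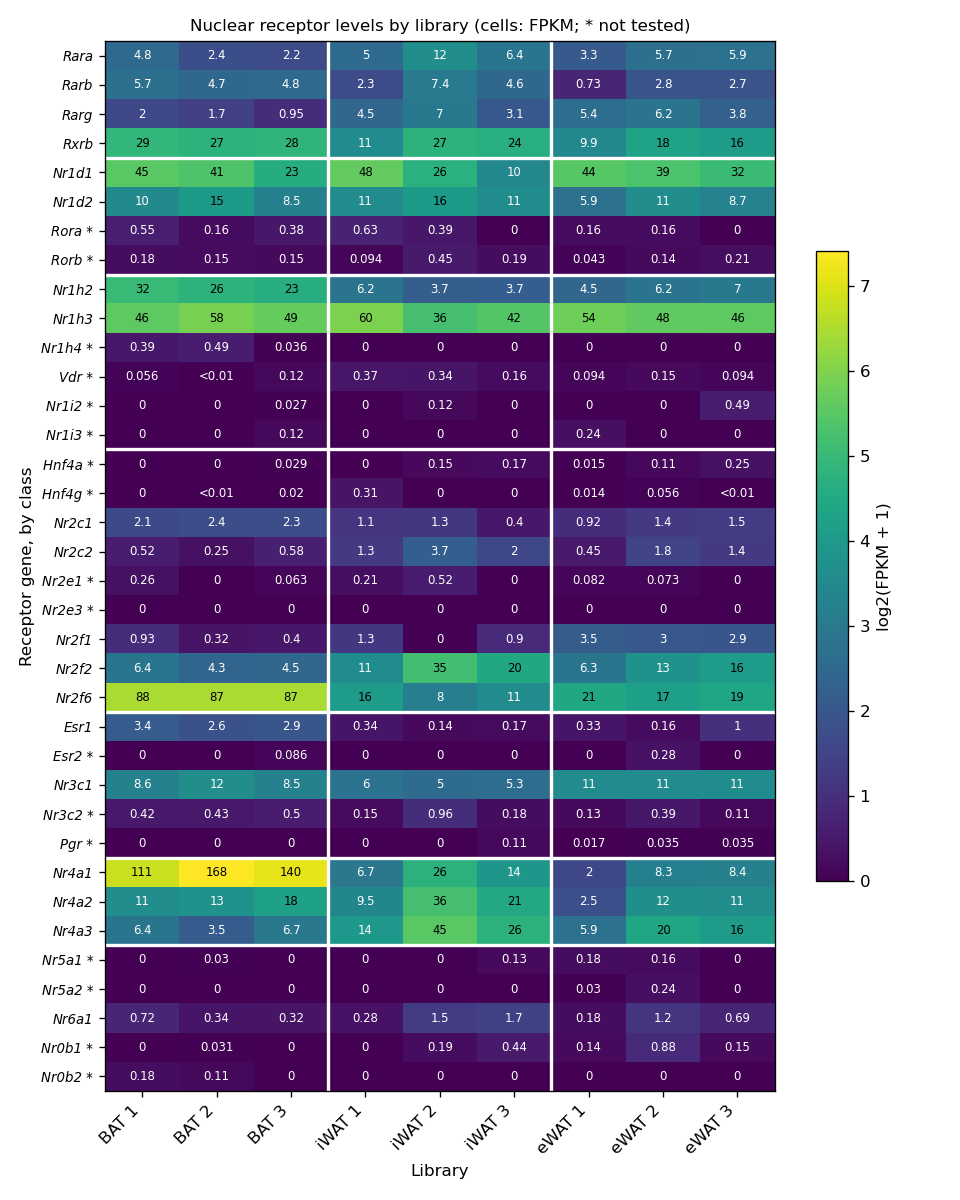
FPKM of all 36 receptors (rows, by class; * not tested) in each of the 9 libraries (columns), with colour for log2(FPKM + 1). Nr4a1 and Nr2f6 hold the highest values in BAT, Nr1h3 and Nr1d1 are above 9 FPKM in every library, and the 17 untested receptors stay below 1 FPKM throughout.

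The largest difference among these receptors was in the NR4A family, whose 3 members diverged. Nr4a1 (Nur77), Nr4a2 (Nurr1) and Nr4a3 (Nor1) are orphan receptors and immediate early genes. Their promoters are shown because the family is known to respond to cyclic AMP through a short core element, CGTCA or TGACG on the other strand. Each sequence is the 250 bases before the RefSeq start on GRCm38.p6, with these letters in capitals: chr15:101266596-101266845 on the plus strand for Nr4a1, chr2:57124004-57124253 on the minus strand for Nr4a2 and chr4:48045055-48045304 on the plus strand for Nr4a3.
Nr4a1: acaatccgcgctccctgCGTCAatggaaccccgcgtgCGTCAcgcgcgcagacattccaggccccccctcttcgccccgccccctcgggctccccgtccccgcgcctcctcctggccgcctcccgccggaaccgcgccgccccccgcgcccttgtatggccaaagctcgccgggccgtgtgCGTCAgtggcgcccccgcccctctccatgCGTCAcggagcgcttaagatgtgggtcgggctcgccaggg
Nr4a2: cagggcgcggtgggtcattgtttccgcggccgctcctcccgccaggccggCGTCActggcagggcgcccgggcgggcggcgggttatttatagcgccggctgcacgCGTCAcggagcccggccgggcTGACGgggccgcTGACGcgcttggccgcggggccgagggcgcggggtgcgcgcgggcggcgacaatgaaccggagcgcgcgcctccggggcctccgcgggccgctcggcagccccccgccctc
Nr4a3: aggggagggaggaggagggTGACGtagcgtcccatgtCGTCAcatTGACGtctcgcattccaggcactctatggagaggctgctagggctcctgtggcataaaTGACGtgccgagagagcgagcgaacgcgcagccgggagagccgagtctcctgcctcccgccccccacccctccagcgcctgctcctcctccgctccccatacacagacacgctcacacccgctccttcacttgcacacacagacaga
Each of the 3 windows held 4 core elements and no full palindrome TGACGTCA (overlapping matches would count as 2). Counted from the transcription start, they began at -233, -213, -69 and -40 in Nr4a1, at -200, -144, -123 and -111 in Nr4a2, and at -231, -213, -205 and -147 in Nr4a3. At least 1 core element was present in 17.8% of the 32851 RefSeq windows of this length, and 4 or more in 0.137%. Among the 33 receptors here that had a window, 10 held at least 1 core element and only these 3 held 4, and the next highest count was 3. A match is a description of the sequence, not a bound site.

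Nr4a1 (chromosome 15, 101097277 to 101105223, build mm9) was at 111, 168 and 139.6 FPKM in BAT, 6.66, 26.2 and 14.2 in iWAT, and 2.03, 8.26 and 8.40 in eWAT. Every BAT library was above every white one, and Nr4a1 ranked first of the 36 receptors in each BAT library. Its mean of 139.8 ± 28.5 FPKM in BAT (SD, n = 3) was 8.92 times that of iWAT (15.7 ± 9.86) and 22.4 times that of eWAT (6.23 ± 3.63). On the log2(FPKM + 1) scale, which understates changes of low genes, the differences were 3.24 (SE 0.51, limma adjusted p = 0.000644) and 4.44 (SE 0.51, adjusted p = 0.0001255). Both calls held under all 19 alternatives.

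Nr4a3 (chromosome 4, 48058025 to 48099319) went the other way. It was at 6.40, 3.46 and 6.73 FPKM in BAT, 14.4, 44.6 and 25.9 in iWAT, and 5.86, 19.9 and 15.9 in eWAT. All 3 iWAT libraries were above BAT, while eWAT 1 lay inside the BAT range. The fall from iWAT to BAT was 5.11-fold in the means (log2 difference -2.07, SE 0.48, limma adjusted p = 0.00488). Against eWAT the difference of -1.08 (SE 0.48) was not called (adjusted p = 0.105), and without eWAT 1 it was -1.57 and called (adjusted p = 0.0185).

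Nr4a2 (chromosome 2, 56959241 to 56976414) was at 11.5, 12.9 and 17.9 FPKM in BAT, 9.46, 36.1 and 21.2 in iWAT, and 2.49, 11.9 and 11.3 in eWAT. The depots overlapped, and neither comparison with BAT was called (adjusted p = 0.484 and 0.242). The make-up of the family differed between brown and white fat with no overlap and little spread. Nr4a1 supplied 85.0% to 91.1% of the family's summed FPKM in BAT and 19.6% to 24.5% in the 6 white libraries. Nr4a3 supplied 1.87% to 4.95% and 41.7% to 56.5%, and Nr4a2 6.998% to 10.9% and 23.95% to 34.6%. The ratio of Nr4a1 to Nr4a2, which does not depend on how a library is scaled, was 7.79 to 13.02 in BAT and 0.670 to 0.817 in white fat, although Nr4a1 itself varied from 2.03 to 26.2 FPKM among the white libraries.

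Within white fat the 3 NR4A genes moved together and beside a keratin. The basal keratin Krt5, an epithelial marker, was at 68.3, 188 and 127 FPKM in iWAT, 29.3, 87.3 and 79.7 in eWAT, and 19.9, 10.3 and 15.8 in BAT. Among the white libraries each NR4A gene was highest in iWAT 2, then in iWAT 3, and lowest in eWAT 1, as was Krt5. This order was not particular to the NR4A genes. Rara, Rarb, Rxrb, Nr2c2 and Nr2f2 followed it as well, as did coregulators such as Ncoa6 and Carm1. Other receptors did not, and Nr1h3 was lowest in iWAT 2. In BAT, where Krt5 was lowest, Nr4a1 was highest. The epithelial markers Epcam and Cdh1 reached only 0.124 and 0.633 FPKM in any library, so Krt5 does not stand for the whole epithelial list. The part of epithelial RNA or depth in the white levels was not tested.

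**Figure D2:**
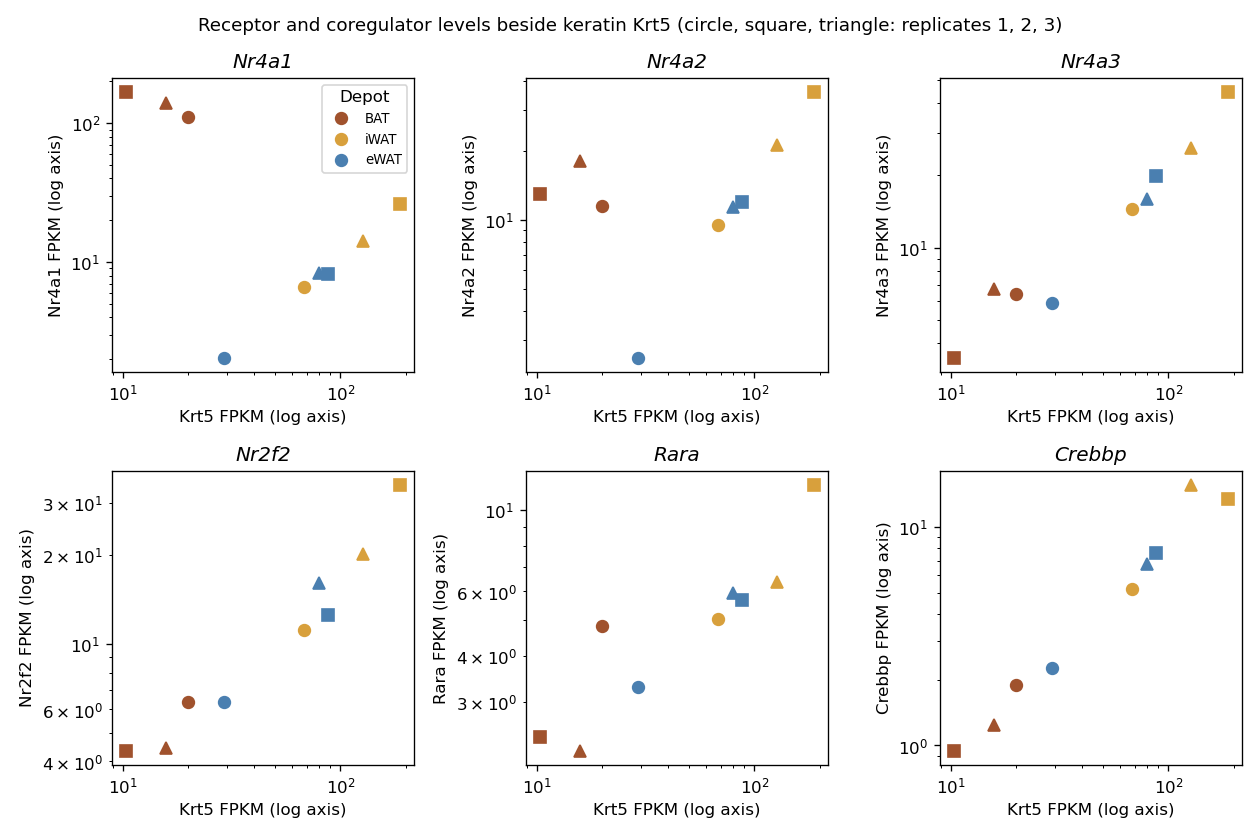
FPKM of 5 receptors and the coregulator Crebbp (vertical, log axes) against FPKM of Krt5 (horizontal, log axis), 1 point per library, with colour for depot and shape for replicate. In the 6 white libraries the points run upward from eWAT 1 to iWAT 2 for Nr4a1, Nr4a2 and Nr4a3, and likewise for Nr2f2 and Rara. The BAT points of Nr4a1, at 111 to 168 FPKM, stand apart.

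Other genes of cyclic AMP and immediate early signalling were read from a list of 14, of which 13 were tested. Against iWAT 1 was higher in BAT and 4 were lower, with a median of -0.28, beside 34.5% and 22.9% of all tested genes. Against eWAT 2 were higher and none lower, with a median of 0.18, beside 20.2% and 13.5% of all tested genes. Ier2, an immediate early gene, was at 49.1, 32.2 and 14.04 FPKM in BAT and 3.80 to 8.62 in white fat (log2 differences 2.18 and 2.16, limma adjusted p = 0.00196 and 0.00299). Crem, which encodes cyclic AMP responsive activators and repressors, was at 8.45, 12.6 and 17.8 FPKM in BAT against 3.89, 8.14 and 6.94 in eWAT (0.92, adjusted p = 0.0422). Fosb (-1.60), Creb1 (-1.04) and Crtc2 (-0.90) were called lower in BAT than in iWAT. In eWAT 1 each stood below all 5 shallow white libraries, as 11 of the 13 tested genes did in all. Egr1 was at 73.2, 19.03 and 4.18 FPKM in BAT 1, 2 and 3 and Fos at 15.1, 2.83 and 0.619, a spread within BAT that Nr4a1 did not show.

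The COUP-TF group holds orphan receptors that often repress transcription. Nr2f6 (EAR2; chromosome 8, 73898022 to 73905859) was at 88.1, 87.2 and 86.8 FPKM in BAT, 15.8, 8.01 and 10.97 in iWAT, and 20.8, 17.3 and 19.5 in eWAT. The BAT libraries lay close together, from 86.8 to 88.1 FPKM, and the 3 depots did not overlap. The mean in BAT, 87.4 ± 0.65 FPKM (SD, n = 3), was 7.54 times that of iWAT (log2 difference 2.86, SE 0.25, limma adjusted p = 2.21e-05) and 4.55 times that of eWAT (2.13, SE 0.25, adjusted p = 0.0001255). Both calls held under all 19 alternatives. Exons of Nr2f6 share 1622 bases with Ocel1 on the opposite strand, and the strand setting of the counting is not stated, so reads there cannot be told apart. Ocel1 was listed at 11.4 to 13.01 FPKM in BAT and 1.62 to 7.03 in white fat.

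Nr2f2 (COUP-TFII), known for roles in vessels, stroma and adipocyte development, was lower in BAT than in iWAT. It was at 6.37, 4.33 and 4.45 FPKM in BAT, 11.2, 34.6 and 20.1 in iWAT, and 6.34, 12.6 and 16.1 in eWAT. The log2 difference was -1.80 against iWAT (SE 0.41, limma adjusted p = 0.00462) and -0.997 against eWAT (SE 0.41, adjusted p = 0.0863), where eWAT 1 fell inside the BAT range. Without eWAT 1 the second was -1.35 and called (adjusted p = 0.0259). Of the 8 stromal markers only 4 were tested, and 3 of them (Dpt, Ly6a and Col1a1) were lower in BAT than in iWAT, beside 22.9% of all tested genes. The part of stromal RNA was not tested.

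Nr2f1 (COUP-TFI) had its highest levels in eWAT. It was at 3.55, 3.01 and 2.91 FPKM there, 0.933, 0.323 and 0.398 in BAT, and 1.31 and 0.895 in iWAT 1 and 3 and listed at 0 in iWAT 2. A listed 0 may be a missing estimate. All 3 eWAT libraries were above the other 6, across both depth classes. Nr2f1 reached 1 FPKM in only 4 libraries, those of eWAT and iWAT 1. It thus passed the filter through eWAT, where it was high, and its call follows in part from the filter. The difference of BAT from eWAT was -1.44 (SE 0.30, limma adjusted p = 0.00458), lost with a pseudocount of 0.1 (adjusted p = 0.0563). That of iWAT from eWAT was -1.34 (SE 0.30, adjusted p = 0.0549). Exons of Nr2f1 share 103 bases with the antisense RNA A830082K12Rik. In the summed FPKM of the 3 genes, Nr2f6 supplied 92.3% to 94.9% in BAT and 18.8% to 67.8% in white fat.

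The testicular receptors Nr2c1 (TR2) and Nr2c2 (TR4), orphan receptors that can pair with each other, went opposite ways. Nr2c1 was at 2.08, 2.39 and 2.33 FPKM in BAT, 1.15, 1.28 and 0.398 in iWAT, and 0.919, 1.41 and 1.48 in eWAT, with every BAT library above every white one. It was called higher than in iWAT (log2 difference 0.78, SE 0.23, limma adjusted p = 0.0154), a call lost without BAT 2 (adjusted p = 0.0557), BAT 3 (0.0519) or iWAT 3 (0.0536), and not against eWAT (0.53, adjusted p = 0.0977). Nr2c2 was at 0.516, 0.248 and 0.580 FPKM in BAT, 1.33, 3.67 and 2.02 in iWAT, and 0.450, 1.84 and 1.39 in eWAT. It was lower than in iWAT by 1.15 log2 units (-1.15, SE 0.31, adjusted p = 0.0102), with eWAT 1 again at the BAT level. Against eWAT the difference of -0.57 was not called (adjusted p = 0.173). Nr2c2 reached 1 FPKM in only 5 libraries, those of iWAT and eWAT 2 and 3. It thus passed the filter through white libraries, where it was high, and its call follows in part from the filter. Nr2c2 shares 3533 exon bases with Mrps25 on the opposite strand, which was listed at 13.02 to 14.8 FPKM in BAT and 5.07 to 9.90 in white fat. The other members of this class were barely detected: Hnf4a, known from liver and gut, reached 0.255 FPKM, Hnf4g 0.314 and the neural receptor Nr2e1 0.522, and the retinal receptor Nr2e3 was listed at 0 in all 9 libraries.

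The liver X receptors sense oxysterols and switch on sterol export and lipid synthesis. The widely expressed form Nr1h2 (LXR beta; chromosome 7, 51804986 to 51809321) was at 31.6, 26.5 and 23.3 FPKM in BAT, 6.21, 3.73 and 3.66 in iWAT, and 4.47, 6.23 and 7.02 in eWAT. The lowest BAT library was more than 3 times the highest white one. Its mean of 27.1 ± 4.16 FPKM in BAT was 5.99 times that of iWAT (log2 difference 2.37, SE 0.26, limma adjusted p = 7.7e-05) and 4.59 times that of eWAT (2.03, SE 0.26, adjusted p = 0.000215). Both calls held under all 19 alternatives.

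Nr1h3 (LXR alpha), the form enriched in metabolic tissues, showed no such difference. It was at 46.5, 58.4 and 49.4 FPKM in BAT, 60.03, 36.3 and 41.8 in iWAT, and 54.0, 47.6 and 46.5 in eWAT. The groups overlapped in each comparison, with differences of 0.18 (SE 0.23) and 0.05 (SE 0.23) for BAT against iWAT and eWAT, and the sign of both turned with quantile normalization. It was the highest of the 36 receptors in iWAT 1, iWAT 3 and all eWAT libraries. Nr1h2 made up 31.2% to 40.5% of the pair's summed FPKM in BAT and 7.65% to 13.1% in white fat.

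**Figure D3:**
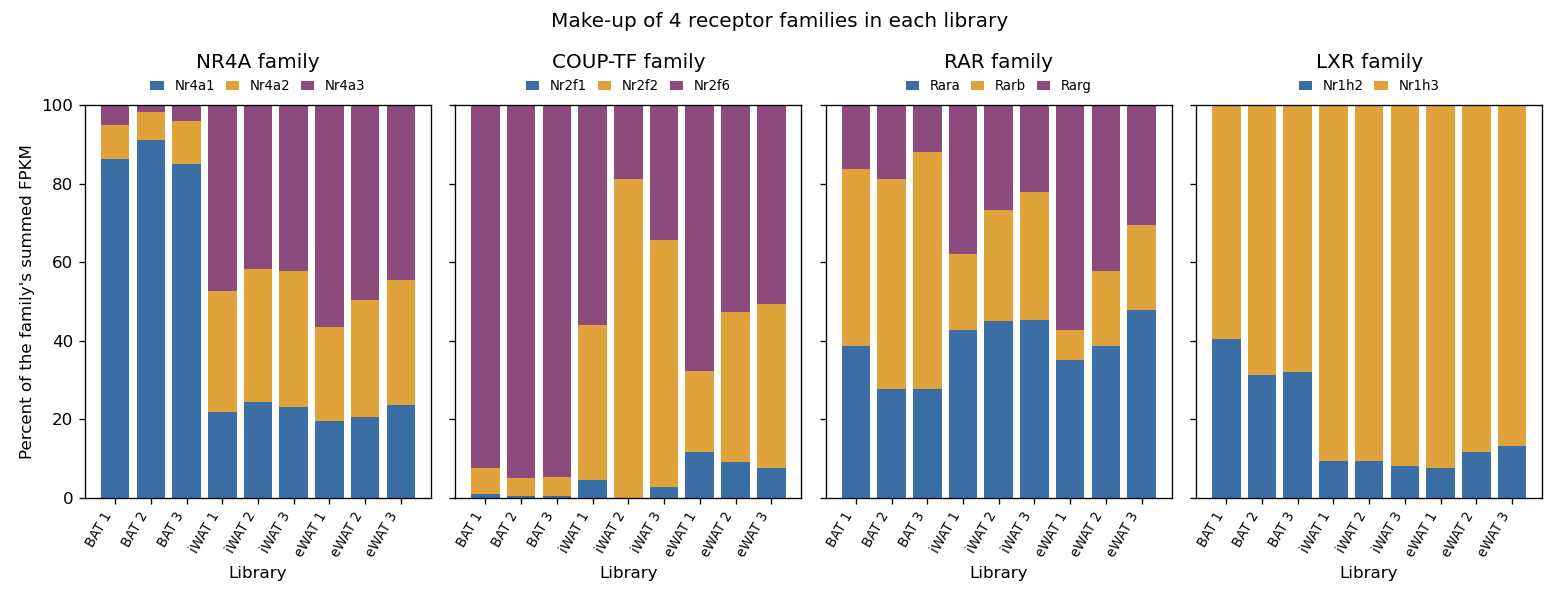
Percent of each family's summed FPKM supplied by each member (stacked bars, 1 bar per library) for the NR4A, COUP-TF, retinoic acid receptor (RAR) and liver X receptor (LXR) families. Nr4a1 supplies 85.0% to 91.1% of its family in BAT and 19.6% to 24.5% in white fat, and Nr1h2 31.2% to 40.5% against 7.65% to 13.1%.

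Of 12 known liver X receptor targets, 10 were tested. Against iWAT 4 were higher in BAT and 2 lower (median 0.07), beside 34.5% and 22.9% of all tested genes. Against eWAT 3 were higher and 1 lower (median -0.55), beside 20.2% and 13.5%. The phospholipid transfer protein Pltp was at 18.4, 20.8 and 14.1 FPKM in BAT, 12.1, 4.31 and 2.38 in iWAT, and 2.44, 2.07 and 1.40 in eWAT (log2 differences 1.59 and 2.66, limma adjusted p = 0.00971 and 0.00088). The desaturase Scd1 had mean levels of 5065.5 FPKM in BAT against 1546.5 for iWAT (1.87, adjusted p = 0.00736). Arl4c was lower than in iWAT (-2.69, adjusted p = 0.00251), and the sterol exporter Abca1 was lower than in eWAT (-0.93, adjusted p = 0.0123). Lpcat3, which remodels phospholipids, was higher in both comparisons (1.37 and 0.86, adjusted p = 0.00246 and 0.0355). Of these, Arl4c stood at 6.74 FPKM in eWAT 1, inside its BAT range of 3.30 to 8.49.

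The farnesoid X receptor Nr1h4, the bile acid sensor, had 0.389, 0.487 and 0.0362 FPKM in BAT, while the 6 white libraries list it at 0. The vitamin D receptor Vdr lay between 0.00963 and 0.372 FPKM, the pregnane X receptor Nr1i2 reached 0.492 and the xenobiotic receptor Nr1i3 (CAR) 0.237. None of these was tested. Of 11 known targets and enzymes of these receptors, 3 were tested and 2 were higher in BAT in both comparisons (medians 2.45 and 0.95). Among all tested genes, 34.5% were higher than in iWAT and 20.2% higher than in eWAT. Cyp27a1, a mitochondrial sterol hydroxylase, was at 12.6, 20.2 and 15.6 FPKM in BAT, 2.20, 0.501 and 0.803 in iWAT, and 10.3, 6.49 and 6.82 in eWAT (log2 differences 3.04 and 0.95, limma adjusted p = 6.26e-05 and 0.0429). It was also lower in iWAT than in eWAT (-2.09, adjusted p = 0.013). Cyp2b10, a classical CAR target, was at 4.23, 1.86 and 13.5 FPKM in BAT and no higher than 0.178 in white fat. Like Esr1 it passed the filter only through BAT, so its 2 calls follow in part from the filter.

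Among steroid receptors, Esr1 (estrogen receptor alpha; chromosome 10, 5340927 to 5734948) was higher in BAT. It was at 3.43, 2.59 and 2.91 FPKM in BAT, 0.337, 0.142 and 0.166 in iWAT, and 0.331, 0.159 and 0.997 in eWAT. Every BAT library was above every white one. The mean of 2.97 ± 0.42 FPKM was 13.8 times that of iWAT (log2 difference 1.71, SE 0.23, limma adjusted p = 0.000246) and 6.00 times that of eWAT (1.44, SE 0.23, adjusted p = 0.000849). White levels this low rest on few reads, and the ratios are correspondingly uncertain. Leaving out any BAT library removed Esr1 from the test. Esr2 (estrogen receptor beta) reached 0.282 FPKM and was listed at 0 in 7 libraries, and the progesterone receptor Pgr reached 0.109.

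The glucocorticoid receptor Nr3c1 was lowest in iWAT. It was at 8.62, 11.6 and 8.48 FPKM in BAT, 6.04, 4.97 and 5.32 in iWAT, and 10.9, 10.8 and 11.2 in eWAT. The iWAT libraries lay below all others, and the eWAT libraries agreed closely across both depth classes. The difference of BAT from iWAT was 0.71 (SE 0.21, limma adjusted p = 0.015), lost with quantile normalization (0.49, adjusted p = 0.0681) and without BAT 2 (0.57, adjusted p = 0.0803). The difference of BAT from eWAT was -0.19 (SE 0.21, adjusted p = 0.492). That of iWAT from eWAT was -0.90 (SE 0.21), 2.01-fold lower in the means and just short of the threshold (adjusted p = 0.0592). The mineralocorticoid receptor Nr3c2 lay between 0.109 and 0.955 FPKM, so that Nr3c1 was 5.20 to 102.5 times as high within each library.

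Genes that handle glucocorticoids or are known to be induced by them went both ways. Of 18 listed, 17 were tested. Against iWAT 2 were higher in BAT and 5 lower (median -0.47), beside 34.5% and 22.9% of all tested genes. Against eWAT 3 were higher and 6 lower (median -0.63), beside 20.2% and 13.5%. Fkbp5, a chaperone of the receptor and a classical target, was at 0.623, 0.922 and 0.766 FPKM in BAT, 9.20, 3.06 and 7.24 in iWAT, and 25.8, 12.3 and 21.3 in eWAT (log2 differences -1.98 and -3.50, limma adjusted p = 0.00149 and 6.23e-05). It stood at its highest in the deep white library. Cebpd, a transcription factor of early adipogenesis, was lower in both comparisons (-1.86 and -2.27, adjusted p = 0.0242 and 0.0163). Tsc22d3 (GILZ) was at 12.98, 16.04 and 21.1 FPKM in BAT and 62.3, 62.1 and 90.1 in eWAT (-2.04, adjusted p = 0.00054). Pdk4, which the glucocorticoid receptor shares with the PPARs as a target, was at 479, 450 and 538 FPKM in BAT and 2.05 to 13.9 in white fat (5.33 and 6.29, adjusted p = 1.11e-05 and 4.29e-06). The activating enzyme Hsd11b1 did not pass the test in any comparison, with 58.1, 58.5 and 72.5 FPKM in BAT and 56.0 to 158 in white fat. H6pd, which supplies its cofactor, was lower in iWAT than in eWAT (-1.77, adjusted p = 0.0333). Of 12 genes of sex steroid handling in the table, 5 were tested. Against iWAT 3 of them were higher in BAT, Hsd17b12 (2.04, adjusted p = 0.000531), Hsd17b4 (1.12, adjusted p = 0.00565) and Srd5a3 (0.75, adjusted p = 0.0431), with a median of 1.12. None was lower, beside 34.5% of all tested genes called higher and 22.9% lower. Against eWAT none was lower, and 1 was higher (1.85, adjusted p = 0.00123), beside 13.5% and 20.2% of all tested genes. The median was 0.28. The higher gene was Hsd17b12, a dehydrogenase that also acts in fatty acid elongation, at 206, 207 and 221 FPKM in BAT and 34.3 to 85.2 in white fat.

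**Figure D4:**
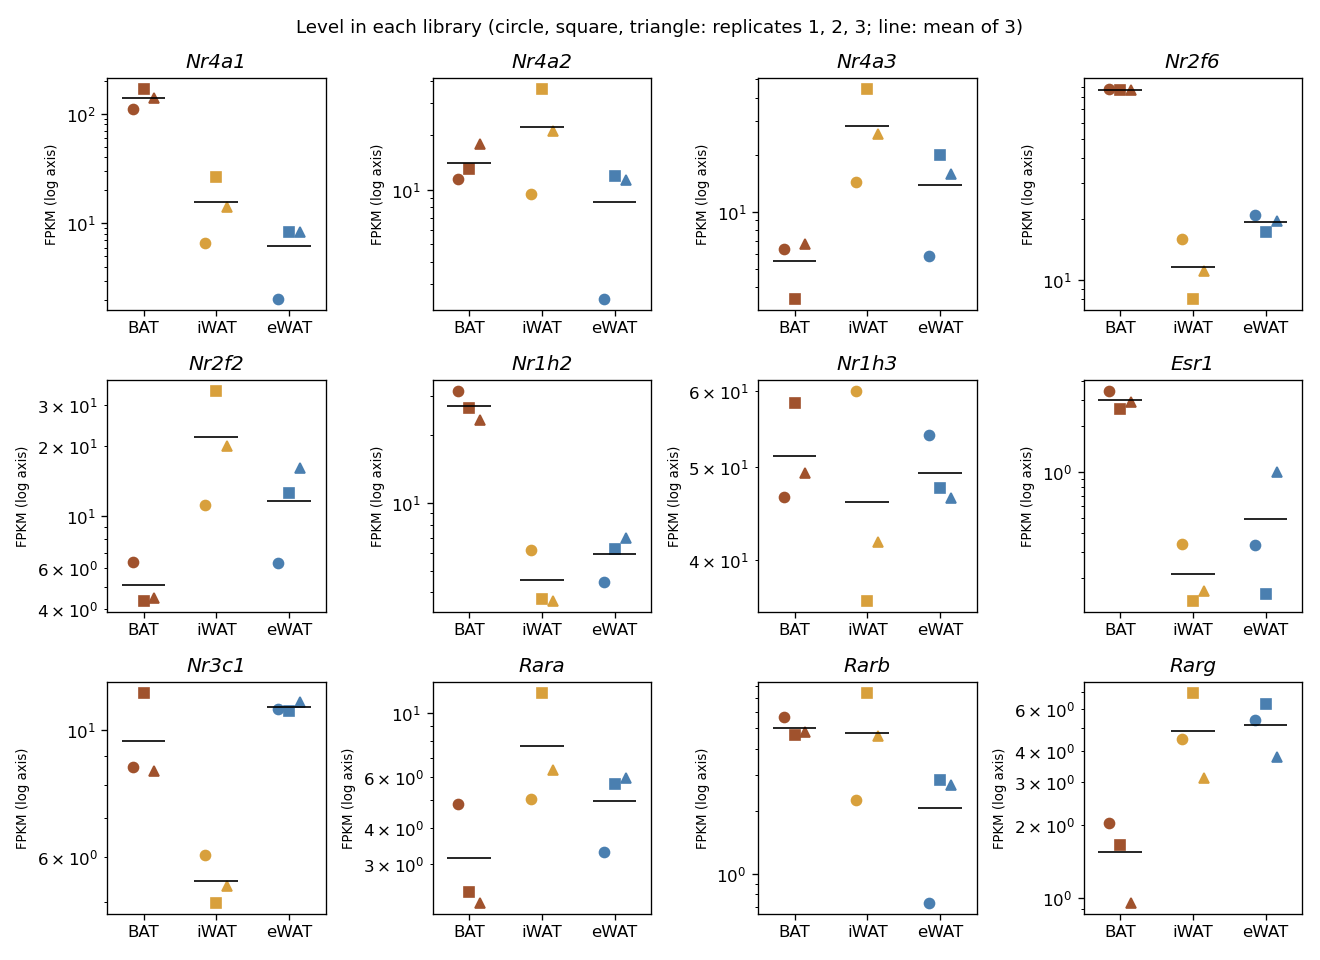
FPKM (log axes) of 12 receptors in each library, by depot, with circle, square and triangle for replicates 1, 2 and 3 and a bar at each depot mean. The BAT libraries of Nr4a1, Nr2f6, Nr1h2 and Esr1 lie above all 6 white libraries, and the eWAT libraries of Nr3c1, at 10.8 to 11.2 FPKM, lie above all 3 of iWAT.

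The retinoic acid receptors, ligand-dependent partners of the retinoid X receptors, differed in their mix. Rarg was at 2.04, 1.65 and 0.954 FPKM in BAT, 4.49, 6.96 and 3.10 in iWAT, and 5.37, 6.24 and 3.79 in eWAT. Every white library, deep or shallow, was above BAT, and Rarg was called lower than in iWAT (log2 difference -1.17, SE 0.30, limma adjusted p = 0.00766) and than in eWAT (-1.27, SE 0.30, adjusted p = 0.00813). Against eWAT 1 alone, without the shallow eWAT libraries, the difference was -1.35 with an adjusted p = 0.0741. Rara was at 4.84, 2.41 and 2.20 FPKM in BAT, 5.04, 11.7 and 6.37 in iWAT, and 3.29, 5.69 and 5.94 in eWAT. It was lower than in iWAT (-1.05, SE 0.35, adjusted p = 0.0256), a call lost with no filter (adjusted p = 0.0583) and without BAT 2 (0.0878), BAT 3 (0.0942) or iWAT 2 (0.0907), and it overlapped with eWAT.

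Rarb was at 5.67, 4.67 and 4.81 FPKM in BAT, 2.28, 7.40 and 4.59 in iWAT, and 0.728, 2.83 and 2.69 in eWAT. BAT and eWAT did not overlap, but the difference of 1.06 (SE 0.39) missed the threshold (limma adjusted p = 0.0571). It was called under 7 of the alternatives, among them median-ratio scaling (adjusted p = 0.0421) and the fit of these depots alone (0.0279). Within the deep libraries Rarb was at 0.728 FPKM in eWAT 1 against 4.67 or more in BAT. Rarb supplied 45.2% to 60.4% of the summed FPKM of the 3 receptors in BAT and 7.75% to 32.7% in white fat. Rxrb, a partner of many receptors here, was at 28.7, 26.8 and 27.7 FPKM in BAT, 11.05, 26.8 and 23.9 in iWAT, and 9.90, 18.4 and 16.2 in eWAT. Its differences of 0.50 and 0.90 from iWAT and eWAT were not called (adjusted p = 0.219 and 0.0617). The second was called under 7 of the alternatives as well, among them median-ratio scaling (adjusted p = 0.0471) and the fit of these depots alone (0.0139).

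Of 18 genes that bind, make or break down retinoids, 7 were tested. Against iWAT 1 was higher in BAT and 3 lower (median -0.78), beside 34.5% and 22.9% of all tested genes. Against eWAT 1 was higher and 2 lower (median -0.91), beside 20.2% and 13.5%. Aldh1a1, which makes retinoic acid from retinaldehyde, was at 0.660, 0.904 and 1.54 FPKM in BAT, 29.0, 4.95 and 9.90 in iWAT, and 87.7, 65.1 and 81.9 in eWAT. The 3 depots did not overlap, and all 3 differences were called (-2.64, -5.29 and, for iWAT minus eWAT, -2.65, limma adjusted p = 0.00141, 2.82e-05 and 0.026). Retsat, a retinol saturase, was at 76.3, 84.4 and 78.8 FPKM in BAT and 11.6 to 26.3 in white fat (2.38 and 1.67, adjusted p = 2.97e-05 and 0.00026). Crabp1, which binds retinoic acid in the cytosol, was lower than in iWAT (-2.21, adjusted p = 0.0196), with 0.276 FPKM in eWAT 1. The carrier Rbp4 was lower than in eWAT (-2.03, adjusted p = 0.00836).

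The REV-ERB clock receptors were at 5.93 FPKM or more in every library, and no comparison of them was called. Nr1d1 (REV-ERB alpha), a heme-binding repressor of the clock, was at 44.6, 40.6 and 22.9 FPKM in BAT, 48.3, 25.6 and 9.99 in iWAT, and 43.9, 38.7 and 32.0 in eWAT. The spread within iWAT, from 9.99 to 48.3 FPKM, was wider than that between the depot means (28.0 to 38.2 FPKM), and the labels give no time of collection. Its differences of 0.55 (SE 0.47) and -0.13 (SE 0.47) for BAT against iWAT and eWAT were not called (limma adjusted p = 0.334 and 0.853). The second turned in sign without BAT 3 and the first without iWAT 3. The first was called with array weights (1.07, adjusted p = 0.0468) and without iWAT 1 (1.06, adjusted p = 0.0395), and without iWAT 1 the difference of iWAT from eWAT was called too (-1.19, adjusted p = 0.0475). Exons of Nr1d1 share 263 bases with Thra on the opposite strand, which was listed at 21.2 to 31.3 FPKM in BAT and 8.09 to 18.1 in white fat.

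Nr1d2 (REV-ERB beta) was at 10.4, 15.4 and 8.49 FPKM in BAT, 10.8, 15.5 and 11.2 in iWAT, and 5.93, 11.3 and 8.74 in eWAT, and none of its comparisons was called (limma adjusted p of 0.266 or more). The opposing activators Rora and Rorb reached 0.633 and 0.446 FPKM. Of 15 clock genes that these receptors act on or with, 13 were tested. Against iWAT 2 were higher in BAT and 2 lower (median 0.49), beside 34.5% and 22.9% of all tested genes. Against eWAT 2 were higher and 1 lower (median 0.28), beside 20.2% and 13.5%. Nfil3, a known REV-ERB target, was at 3.82, 4.31 and 26.6 FPKM in BAT and 0.494 to 1.98 in white fat (log2 differences 2.02 and 2.22, adjusted p = 0.0127 and 0.0134). Its highest value was in BAT 3, where Nr1d1 was lowest for that depot. In iWAT it was likewise highest in iWAT 3 (1.98 FPKM), where Nr1d1 was lowest. In eWAT it was highest in eWAT 1 (1.16 FPKM), where Nr1d1 was highest too. A link between these genes was not tested. Hlf, a clock output factor, was at 5.91, 9.67 and 4.87 FPKM in BAT and 0.445 to 3.67 in white fat (1.26 and 1.77, adjusted p = 0.0162 and 0.00495). Arntl, the core activator, was lower than in iWAT (-1.47, adjusted p = 0.0101), and in eWAT 1, at 1.30 FPKM, it lay inside the BAT range. The repressor Cry2 was lower in both comparisons (-0.84 and -1.22, adjusted p = 0.0226 and 0.00648).

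Nr6a1 (GCNF), an orphan receptor of germ cells and embryos, was at 0.721, 0.343 and 0.321 FPKM in BAT, 0.283, 1.45 and 1.71 in iWAT, and 0.182, 1.19 and 0.686 in eWAT, and was not called in any comparison (limma adjusted p of 0.2 or more). Without iWAT 1, BAT was lower than iWAT by 0.83 log2 units (-0.83, adjusted p = 0.0229). The steroidogenic receptor Nr5a1 reached 0.179 FPKM and Nr5a2 (LRH-1) 0.238. The receptors without a DNA-binding domain were as low. Nr0b1 (DAX-1) reached 0.882 FPKM, in eWAT 2. Nr0b2 (SHP), a target of the farnesoid X receptor, was at 0.183 and 0.106 FPKM in BAT 1 and 2 and listed at 0 in BAT 3 and the 6 white libraries.

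**Figure D5:**
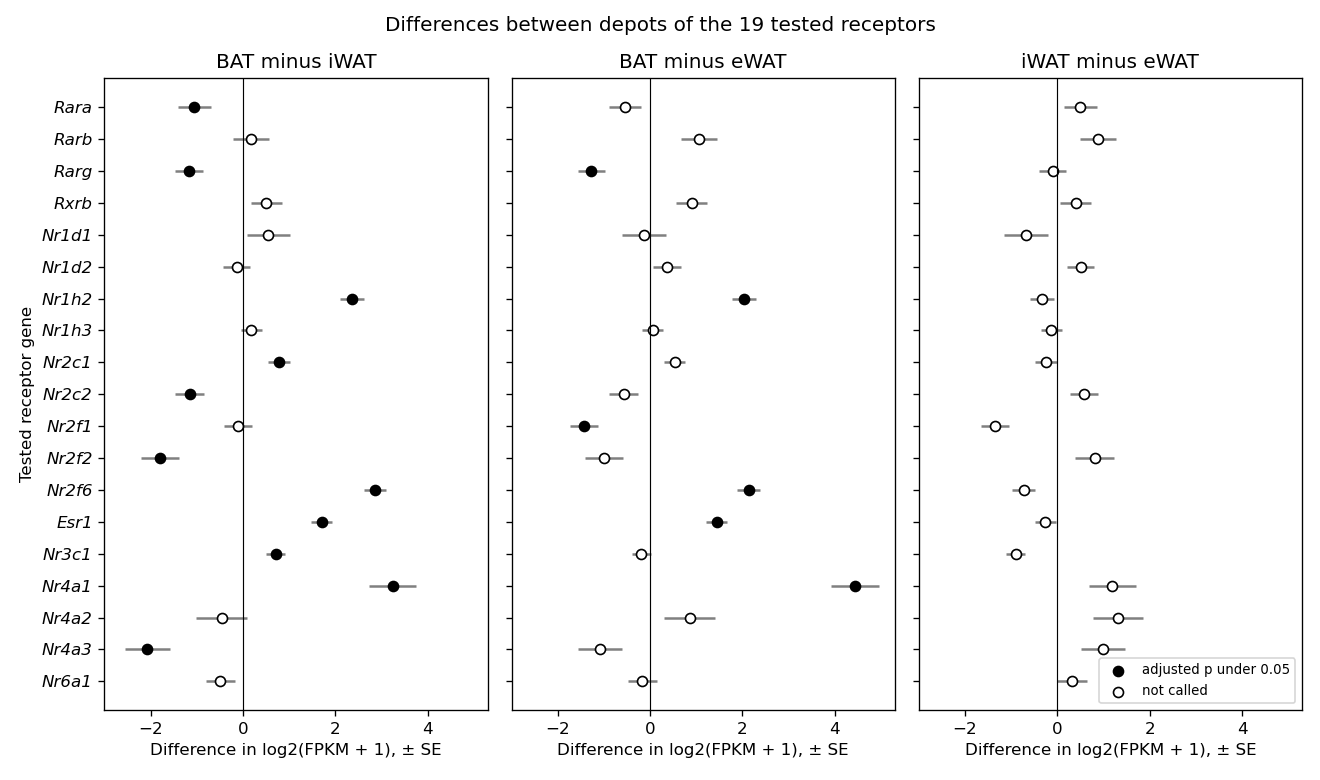
Difference in log2(FPKM + 1) with its SE for the 19 tested receptors in the 3 comparisons of depots, filled where the limma adjusted p is under 0.05. The largest differences belong to Nr4a1 (3.24 and 4.44), and no receptor is called between iWAT and eWAT.

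Coregulators carry the effect of the receptors to chromatin: coactivators such as the NCOA family, CBP and p300 acetylate or recruit, and corepressors such as NCOR1 recruit deacetylases. Of 18 listed, 17 were tested. None was higher in BAT in either comparison, beside 34.5% of all tested genes against iWAT and 20.2% against eWAT. Of the list, 10 were lower than in iWAT (22.9% of all tested genes were, median of the list -0.83) and 3 were lower than in eWAT (13.5%, median -0.71). Crebbp, which encodes CBP, was at 1.89, 0.941 and 1.24 FPKM in BAT, 5.21, 13.4 and 15.6 in iWAT, and 2.25, 7.55 and 6.75 in eWAT (log2 differences -2.30 and -1.37, limma adjusted p = 0.00192 and 0.0361). Ncoa6 (-1.88) and the arginine methyltransferase Carm1 (-1.74) were next against iWAT. In eWAT 1, 9 of the 10 (and 12 of all 17 tested) stood below all 5 shallow white libraries, as Krt5 did, and 4 lay within the BAT range. The exception was Prmt1, at 20.3 to 26.1 FPKM in BAT and 35.9 to 44.7 in each white library, deep or shallow (-0.68 and -0.76, adjusted p = 0.0147 and 0.0142). Tbl1x, a corepressor subunit, was lower than in eWAT (-0.97, adjusted p = 0.00667), and at 4.73 FPKM in eWAT 1 it was highest in the deep white library.

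Between the white depots, the test without pairing called no receptor. All 3 eWAT libraries were above all 3 of iWAT for Nr3c1, Nr2f1 and Nr2f6, which makes 3 of 19 receptors whose groups did not overlap, beside 22.7% of all tested genes, a share no higher than the background. Nr2f6 differed by -0.73 (SE 0.25, limma adjusted p = 0.121). The NR4A genes were higher in iWAT in the means, by 2.52-fold for Nr4a1, 2.59-fold for Nr4a2 and 2.04-fold for Nr4a3, with overlapping libraries. Same-numbered libraries of the white depots deviated together from their group means for replicates 1 and 2 (correlations 0.634 and 0.534). For replicate 3 the correlation of 0.165 was below that of iWAT 2 with eWAT 3 (0.228), whose numbers differ. The labels do not say what a number marks. With the replicate number as a block in these 2 depots alone, Nr4a1 (adjusted p = 0.0349), Nr4a2 (0.0276), Nr4a3 (0.0367) and Rarb (0.0441) were called higher in iWAT, and Nr2f1 (0.0339) and Nr3c1 (0.04) lower. That fit called 5.13% of all its tested genes higher and 10.2% lower. Krt5 was higher in iWAT than in eWAT within each of these pairs as well. Without iWAT 1, the library nearest to eWAT, 5 receptors were called higher in iWAT and 4 lower, beside 4.44% and 27.8% of all tested genes.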

How the data were processed

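Ribosome-bound RNA from 9 libraries (3 each of BAT, iWAT and eWAT) was depleted of ribosomal RNA and sequenced single-end, per the labels' protocols. The authors deposited 1 table of FPKM values, made with TopHat and Cufflinks on genome build mm9, per the submitters' processing notes, which give no versions; annotation, filters and strand setting are not given in the sources used here. The header names no unit, and Cufflinks with fractional values of unequal sums is the ground for reading FPKM. Groups follow the titles, and no label ties a replicate to an animal or culture of its own, so the p-values cover only the spread among these libraries, which may be technical.

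Of the 22996 lines, those of 259 repeated symbols were reduced to the one of highest mean. Genes that reached 1 FPKM in 3 or more libraries were fitted as log2(FPKM + 1) in limma 3.58.1 (R 4.3.3, empirical Bayes with trend, 9 libraries, 6 residual degrees of freedom), with Benjamini-Hochberg adjustment over 10374 genes and calls at 0.05. The edgeR test planned for counts did not apply. Members given in full had a mean of at least 5 FPKM in a depot or a call. Of each list, up to 3 called genes with the largest differences were named, and Crtc2, Egr1, Fos, Tsc22d3, Hsd11b1, Ocel1, Mrps25 and Thra were chosen after their values were seen. Members and lists were chosen with earlier results of these data known. Depth was estimated from values of genes with 1 transcript, of which 44.3% to 63.5% came within 0.15 of whole reads. Depth sets how firmly low values can be read, and Cufflinks' handling of shared exons can set single values to 0. Same-numbered iWAT and eWAT libraries had correlated deviations of 0.634, 0.534 and 0.165 for replicates 1, 2 and 3. Those with BAT were at -0.388 to 0.121. Differently numbered iWAT and eWAT libraries were at -0.576 to 0.228, so the third pair did not stand out. Gene positions are from GENCODE vM1 (NCBIM37, mm9) and promoters from RefSeq (GRCm38.p6), in which 33 of 36 receptors matched. Sts was not found in the table, and 6 list genes were matched by an older symbol.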

Additional observations from a re-analysis of the deposited data

How the results depend on the processing

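Of 57 differences (19 receptors in 3 comparisons), 17 were called. Of these, 12 stayed called under every alternative that could be fitted (2 of them of Esr1, which was not tested without BAT 1, 2 or 3 or with the filter at 5 FPKM), no called difference changed sign, 12 calls were lost under single alternatives and 49 were gained. Receptors called higher in BAT than in eWAT numbered 4, and 7 with only the 2 depots compared and with array weights. Those called lower numbered 2 (Rarg and Nr2f1), and 1 with a pseudocount of 0.1 and 6 with array weights. The filter at a mean of 5 FPKM left 12 receptors in the test. It removed both Rarg and Nr2f1, so neither could be called there. Without eWAT 2 and 3, Nr2f1 was not tested and the difference of Rarg was -1.35. Those called lower than in iWAT numbered 5, and 3 with the filter at 5 FPKM, which removed Rarg and Nr2c2 from the test. Between iWAT and eWAT array weights called 3 lower, the replicate block over all depots 1 lower, and the replicate block in these 2 depots alone 4 higher and 2 lower. That block, like the fit without eWAT 2 and 3, was chosen after seeing the data. Between BAT and iWAT, whose libraries share only a number, the block in these depots alone ended the call of Nr3c1 (adjusted p = 0.0935).

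The filter at 5 FPKM tested 5934 genes in place of 10374, so its counts fall for that reason too. It called 40.6% higher and 23.2% lower in BAT than in iWAT, beside 34.5% and 22.9% in the fit reported. Against eWAT it called 23.6% and 14.2%, beside 20.2% and 13.5%. For iWAT against eWAT it called 0.27% and 1.06%, beside 0.231% and 1.5%. All genes called between BAT and iWAT numbered 5961, and 3783 with that filter. Between BAT and eWAT they numbered 3492, and 2244 with that filter, 6625 with array weights and 1411 without eWAT 2 and 3. Between iWAT and eWAT they numbered 180, and 90 with a pseudocount of 0.1, 93 with no filter, 79 with the filter at 5 FPKM, 115 with median-ratio scaling, 45 with only these depots, 1970 with array weights, 1495 with the block in these depots and 27 without eWAT 2 and 3. The 180 split into 24 higher and 156 lower, against 33 and 82 with median-ratio scaling and 31 and 94 with quantile normalization. Leaving out 1 library at a time gave 4289 to 6829, 2141 to 4422 and 15 to 3315 genes for the 3 comparisons, 3 to 7 receptors higher and 4 to 6 lower for BAT against iWAT, 3 to 6 and 2 to 5 for BAT against eWAT, and 0 to 5 and 0 to 4 for iWAT against eWAT. Counts moved by over 1.5 times in these cases. Without BAT 2, 3 receptors were higher than in iWAT, and without eWAT 1, 5 were lower than in eWAT. Without BAT 1, 2 or 3, 2267, 2142 and 2141 genes were called between BAT and eWAT, and 82, 79 and 82 between the white depots. The latter count was 3315, 65 and 52 without iWAT 1, 2 or 3, and 24, 61 and 15 without eWAT 1, 2 or 3, and the 5 receptors higher and 4 lower came without iWAT 1.

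Differences not called in the fit reported changed sign 22 times, for 10 of the 57. Leaving out 1 library at a time, BAT minus iWAT ran from -0.024 to 1.059 for Nr1d1, -0.356 to 0.037 for Nr1d2, -0.453 to 0.152 for Nr2f1 and -0.184 to 0.495 for Rarb. BAT minus eWAT ran from -0.304 to 0.161 for Nr1d1 and -0.039 to 0.122 for Nr1h3, and iWAT minus eWAT from -0.331 to 0.025 for Nr1h3 and -0.350 to 0.128 for Rarg. With a pseudocount of 0.1, BAT minus iWAT was 0.211 for Nr2f1. With quantile normalization, BAT minus iWAT was -0.189 for Nr1h3 and 0.018 for Nr2f1, BAT minus eWAT was -0.107 for Nr1h3 and 0.010 for Nr6a1, and iWAT minus eWAT was 0.082 for Nr1h3 and 0.034 for Rarg. With median-ratio scaling, iWAT minus eWAT was 0.070 for Nr1h3 and 0.065 for Rarg. Without eWAT 2 and 3, BAT minus eWAT was -0.075 for Nr1h3. The cause was not tested. Where a left-out library left an arm with 1 sample, that sample was assumed to vary like the other groups. Depth limits receptors below 1 FPKM, which rest on few reads in the shallow libraries.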
